A study of Mus musculus with 4 samples.

Results

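The serpin genes (serine protease inhibitors, named Serpina to Serpini after their clades) were examined in mouse uteri on day 4 of pregnancy. They were chosen by symbol, as every gene whose name begins with Serpin, a clade letter from a to i and a digit, which gave 68 of the 54152 gene symbols in the deposited table. RNA sequencing had been done on whole uteri of C57 mice, all at pregnancy day 4, in 2 libraries with the genotype label P38α ff and 2 with the label P38α dd, under a series title that sets wild type against a P38α knockout. The labels do not say what deletes the gene in dd, in which cells, or whether ff animals carried any other allele. Nor do they say that each replicate is another animal. The p-values therefore describe the spread among these libraries only, and that spread may be technical.

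Serpins share a fold with an exposed reactive centre loop that acts as bait for a protease. When a target protease cuts the loop, an inhibitory serpin changes shape and traps the enzyme in a covalent complex. Clade A members are mostly secreted, clade B members act mostly inside cells, and smaller clades hold the regulators of plasminogen activation (E), complement (G) and collagen folding (H). In the uterus around implantation, proteases and their inhibitors act in matrix turnover, clotting, complement control and leukocyte granule activity.

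The libraries held 24619850 to 32451670 counts, so that 3 counts correspond to 0.0901 to 0.127 CPM (counts scaled to a common library size). Mapk14, which encodes p38α, was counted 3074 and 2710 times in ff replicates 1 and 2, against 2481 and 3429 times in dd replicates 1 and 2. Its level was therefore not lower in the libraries labelled dd (log2 difference 0.28, SE 0.0897, adjusted p = 0.12 by edgeR). Which exons the deletion removes is not given, and a count over the whole gene cannot check the loss of part of it, so every direction here rests on the labels. Differences are dd over ff throughout, from edgeR's quasi-likelihood test with Benjamini-Hochberg adjustment over 18530 genes, and a gene was called at an adjusted p under 0.05. In whole-uterus RNA, fewer cells of a type and less RNA per cell cannot be told apart.

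Of the 68 serpin genes, 27 had no count in any library, 19 had some counts but too few to be tested, and 22 were tested. Among the 22, only Serpinb8 was called (4.55%), as higher in dd, against 8.39% of all tested genes called in either direction 4.52% called higher and 3.86% called lower. The 1 call among 22 is no larger than the background share. By the unadjusted edgeR p, 11 of 22 serpins (5 higher, 6 lower) were under 0.05, against 29.3% of all tested genes (14.9% higher, 14.4% lower). The ff and dd CPM ranges did not overlap for 13 of 22 serpins (6 higher, 7 lower), against 62.8% of all tested genes (31.6% higher, 31.3% lower). The unadjusted p in the authors' deposited table was under 0.05 for 7 of the 22, against 13.2% of all tested genes. The median log2 difference of the 22 was -0.20, beside 0.00 over all tested genes. Of the 22 estimates 14 were below 0 (63.6%), against 49.7% of all tested genes. The number called depended on the test: DESeq2's Wald test called 7 of 24 serpins, against 14.8% of all genes that it gave an adjusted p. Those 7 were Serpina1e, Serpina9 and Serpinb8, higher in dd, and Serpina3n, Serpinb1a, Serpinb9 and Serping1, lower in dd. Without ff replicate 1, dd replicate 1 or dd replicate 2, neither Serpinb8 nor any other serpin was called by edgeR. Without ff replicate 2, the set of tested serpins also changed, and the calls took in Serpinb6c, which is not among the 22.

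**Figure D1:**
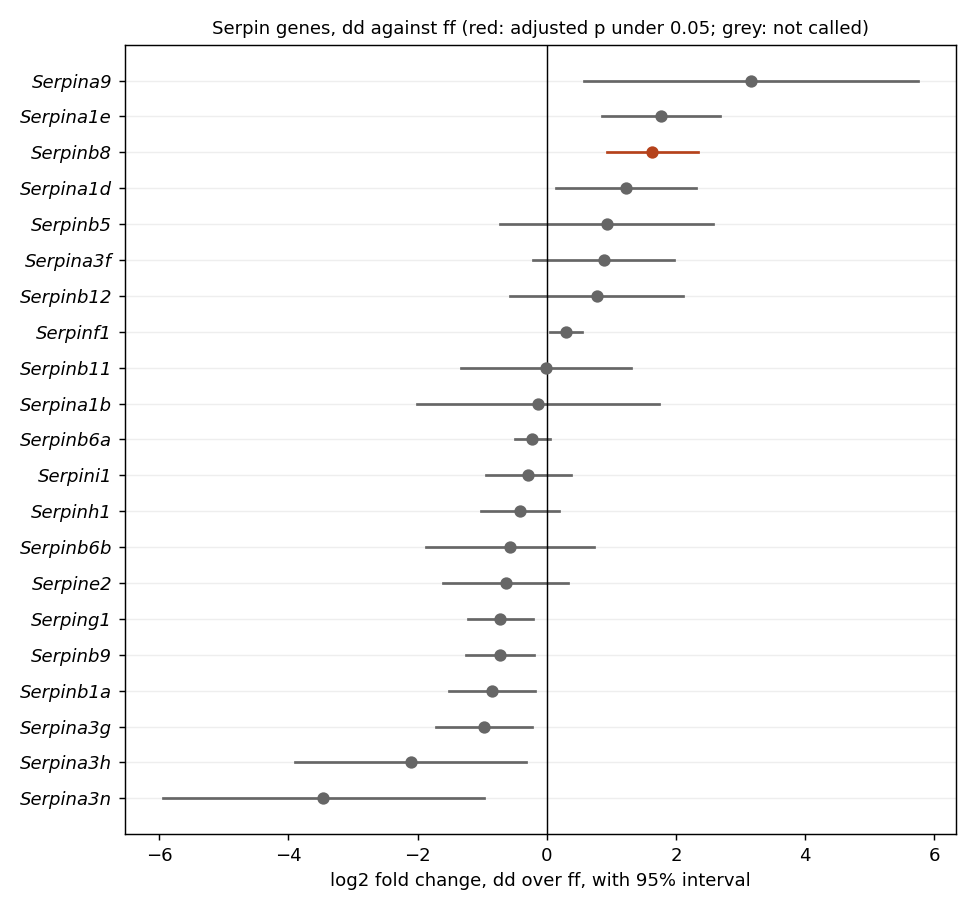
Log2 difference of dd over ff for 21 tested serpin genes (horizontal axis), with the 95% interval of the edgeR fit for that gene alone as a line. Serpinb8, in red, is the called gene; the estimates run from -3.46 (Serpina3n) to 3.16 (Serpina9), and 13 of the 21 points lie left of 0.

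Serpinb8 is an intracellular clade B serpin known as an inhibitor of furin-like and trypsin-like proteases. It lies on the plus strand of chromosome 1 (chr1:107590006-107610484, GRCm38, protein coding), in the clade B cluster of that chromosome. Its counts were 167 and 259 in ff replicates 1 and 2, against 467 and 653 in dd replicates 1 and 2. Both dd libraries stood above both ff libraries. In CPM, Serpinb8 rose from 6.67 ± 2.33 in ff to 20.7 ± 1.27 in dd (SD, n = 2 each). The log2 difference was 1.63 (SE 0.271, 95% interval 0.93 to 2.34, adjusted p = 0.0367 by edgeR), a 3.10-fold increase. Leaving out 1 library at a time kept the estimate between 1.31 and 2.04. The adjusted p moved to 0.0687 when ff replicate 1 was left out, to 0.0763 for dd replicate 1 and to 0.0969 for dd replicate 2. In the authors' deposited table the fold of Serpinb8 is 3.10 with an unadjusted p of 0.000637. Of its transcript sequence, 99.82% of 50-base windows occur in no other GENCODE gene, so its reads are little shared with paralogs. Markers of uterine epithelium moved the same way: their summed level was 1265 and 1532 CPM in ff against 2960 and 3467 CPM in dd, with 6 of 14 markers called higher, none called lower and none at 0. Their part in the Serpinb8 difference was not tested.

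Serpina1e carried the most clade A transcript. It is a mouse copy of the α1-antitrypsin gene, whose human counterpart encodes the secreted inhibitor of neutrophil elastase made mainly in liver. The copies sit side by side on the minus strand of chromosome 12, with Serpina1e at chr12:103946931-103958975 (GRCm38). Serpina1e was counted 2084 and 4024 times in ff replicates 1 and 2, against 8127 and 9335 times in dd replicates 1 and 2. The groups did not overlap, and the ff libraries differed 2.06-fold from each other in CPM. The level was 95.9 ± 47.1 CPM in ff against 326.1 ± 25.3 CPM in dd (SD, n = 2 each). The log2 difference of 1.77 (SE 0.354, 95% interval 0.85 to 2.68) had an adjusted p of 0.0511 by edgeR and was not called. Without ff replicate 1 the estimate was 1.34 with an adjusted p of 0.0545, and without ff replicate 2 it was 2.38 with an adjusted p of 0.0121. With dd replicate 1 left out it was 1.69 with an adjusted p of 0.114. Across 13 other settings the adjusted p of Serpina1e ran from 1.78e-06 (DESeq2) to 0.114, and 6 of them called it. In the authors' deposited table its fold is 3.40 with an unadjusted p of 0.000189. Of 2 tested liver markers 1 was called lower, and the summed level of the list was 17.1 and 13.5 CPM in ff against 1.61 and 3.70 CPM in dd. Of that list, Fgb had no count in any library and Alb was counted 2 and 2 times in ff and 0 and 1 times in dd. The epithelial markers moved in the direction of Serpina1e, with the sums given above, and their part in its difference was not tested.

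The other copies of this gene were near or at 0, although Serpina1a, Serpina1b, Serpina1c and Serpina1d are close to Serpina1e in sequence. Serpina1f is less close: its longest transcript was 39.5% identical to that of Serpina1e, against 83.3% to 87.8% for Serpina1a to Serpina1d. Gaps count as differences in these shares, and the Serpina1f transcript is longer (2830 bases against 1575 for Serpina1e), which lowers its share. Serpina1b had 22 and 98 counts in ff against 41 and 52 in dd, with overlapping groups (log2 difference -0.14, 95% interval -2.01 to 1.74, adjusted p = 0.920 by edgeR). Serpina1d had 7 and 11 counts in ff against 14 and 22 in dd (log2 difference 1.23, adjusted p = 0.136 by edgeR). Serpina1a, Serpina1c and Serpina1f had none in any library. Per length, Serpina1e stood at 59.2 ± 29.0 FPKM in ff and 201.4 ± 14.2 FPKM in dd, while Serpina1b stayed between 0.274 and 1.30 FPKM in all libraries. Coding sequences of 4 of the copies were 91.4% (Serpina1a), 96.3% (Serpina1b), 96.4% (Serpina1c) and 96.3% (Serpina1d) identical to Serpina1e. Each share is over the longer coding sequence of the pair. The annotated coding sequence has 1308 bases in Serpina1a and 1239 in the others, which lowers the Serpina1a share. Bases identical to Serpina1e numbered 1196, 1193, 1195 and 1193 in the same order. Of 50-base windows of Serpina1e transcripts, 64.42% occur in no other gene, against 20.73% for Serpina1c, and how shared reads were assigned is not given, so the split among the copies is uncertain.

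A stretch of coding sequence where the copies differ is shown first, since reads from there can be told apart. Among 1003 windows of 60 bases that lie in 1 exon and align without gaps, it is the first of those with the highest sum of differences from Serpina1e over the other copies (45). It covers bases 1101 to 1160 of the Serpina1e coding sequence (chr12:103947100-103947159, minus strand, last coding exon, GENCODE M21 on GRCm38) and falls in the part that encodes the reactive centre loop. Capitals mark the bases that differ from Serpina1e, 10 to 12 of 60 in each copy.
Serpina1e: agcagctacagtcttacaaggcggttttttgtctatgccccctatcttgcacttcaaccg
Serpina1a: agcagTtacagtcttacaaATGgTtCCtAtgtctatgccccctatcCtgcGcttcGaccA
Serpina1b: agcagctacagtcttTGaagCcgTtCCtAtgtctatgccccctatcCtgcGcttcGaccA
Serpina1c: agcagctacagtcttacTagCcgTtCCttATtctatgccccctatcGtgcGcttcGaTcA
Serpina1d: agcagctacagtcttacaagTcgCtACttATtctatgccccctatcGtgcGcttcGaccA

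A stretch upstream of these genes, taken around a shared GTTAAT, is shown because copies at 0 and a copy at 38.7 to 211.4 FPKM carry nearly the same letters there. The coding window was chosen for its differences and this stretch was not, so their closeness cannot be compared. The whole windows of 250 bases before each RefSeq start are offset against each other, because this stretch sits at different distances from the start. Aligned end to end, with gaps counted as differences, Serpina1a to Serpina1d were 58.3% to 64.2% identical to Serpina1e (Serpina1b at 194 of 302 aligned positions). The unmatched window ends lower these shares, which therefore do not measure how alike the bases are where the windows overlap. The stretch of 86 bases (RefSeq, GRCm38.p6, minus strand) lies at chr12:103956960-103957045 before the RefSeq start of Serpina1e. The other copies shown differ from it at 2 to 6 bases. It falls within the GENCODE span of Serpina1e, and the 250-base window that holds it overlaps an annotated exon of that gene. The Serpina1b stretch likewise falls within the GENCODE span of Serpina1b. In Serpina1e the capitals mark matches to CCAAT and GTTAAT on either strand, which overlap at the last match, and in the other copies they mark bases that differ from Serpina1e. Within 250 bases upstream, CCAAT occurs in 33.8% and GTTAAT in 6.43% of 32851 RefSeq upstream windows on either strand.
Serpina1e: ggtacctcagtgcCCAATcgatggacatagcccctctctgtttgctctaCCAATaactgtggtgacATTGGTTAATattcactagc
Serpina1a: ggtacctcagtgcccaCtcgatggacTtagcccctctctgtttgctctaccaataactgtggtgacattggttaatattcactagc
Serpina1b: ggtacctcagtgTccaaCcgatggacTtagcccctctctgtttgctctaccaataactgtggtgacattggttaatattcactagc
Serpina1c: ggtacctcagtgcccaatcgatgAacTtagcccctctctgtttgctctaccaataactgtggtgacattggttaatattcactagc
Serpina1d: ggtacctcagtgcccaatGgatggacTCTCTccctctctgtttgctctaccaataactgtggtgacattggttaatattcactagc

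Serpina3n, a relative of human α1-antichymotrypsin known to bind cathepsin G and granzyme B, had the lowest log2 difference among the tested serpins with all 4 libraries. Its counts were 1292 and 219 in ff replicates 1 and 2, against 72 and 36 in dd replicates 1 and 2. Both dd libraries were below both ff libraries, but ff replicate 1 was 5.52-fold above ff replicate 2 in CPM. The log2 difference was -3.46 (SE 0.963, 95% interval -5.95 to -0.97, adjusted p = 0.0944 by edgeR), and Serpina3n was not called. Without ff replicate 1 it was -1.74, above Serpina3h (-1.98) in the same fit, and without dd replicate 1 it was -4.26. With ff replicate 2 left out, the adjusted p was 0.0286 by edgeR, and with each of the others left out it was not under the threshold. In the authors' deposited table the fold of Serpina3n is 0.0915 with an unadjusted p of 3.51e-11. Its neighbour Serpina3g stood at 8.53 and 6.13 CPM in ff against 3.09 and 4.36 CPM in dd (log2 difference -0.97, adjusted p = 0.106 by edgeR). Serpina3h was counted 15 and 12 times in ff against 4 and 1 times in dd (log2 difference -2.10, adjusted p = 0.128 by edgeR), and Serpina3f had a log2 difference of 0.88 (adjusted p = 0.243 by edgeR). Of 50-base windows of Serpina3n transcripts, 93.1% occur in no other gene.

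With all 4 libraries, Serpina9 had the highest log2 difference among the tested serpins. It was counted 15 and 36 times in ff, 293 times in dd replicate 1 and 62 times in dd replicate 2. The groups did not overlap, yet dd replicate 1 was 6.06-fold above dd replicate 2 in CPM. The log2 difference was 3.16 (SE 0.998, 95% interval 0.58 to 5.74, adjusted p = 0.119 by edgeR), and DESeq2 gave an adjusted p of 0.00196. Without dd replicate 1 it was 1.36 (adjusted p = 0.279 by edgeR), below Serpina1e (1.69) and Serpinb8 (1.70) in the same fit, and without ff replicate 2 it was 3.98 (adjusted p = 0.176). Summed over clade A, 29 genes of which 8 were tested, deposited FPKM came to 62.7 and 88.6 in ff and 219.3 and 196.1 in dd. Serpina1e alone was 38.7 and 79.7 of these in ff and 211.4 and 191.3 in dd.

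Among the clade B serpins that guard cells against granule proteases, Serpinb1a, Serpinb6a and Serpinb9 had the highest levels per length. Serpinb1a, a cytosolic inhibitor of neutrophil elastase and cathepsin G, stood at 58.3 and 37.8 CPM in ff against 22.9 and 30.6 CPM in dd. Its groups did not overlap (log2 difference -0.84, SE 0.257, 95% interval -1.51 to -0.18, adjusted p = 0.112 by edgeR). Serpinb9, the granzyme B inhibitor of cytotoxic cells and of cells near them, stood at 46.9 and 36.4 CPM in ff against 29.1 and 21.5 CPM in dd. Its groups did not overlap either (log2 difference -0.72, SE 0.205, 95% interval -1.25 to -0.19, adjusted p = 0.0984 by edgeR). Serpinb6a, which inhibits cathepsin G among others, stood at 134.2 and 119.2 CPM in ff against 113.9 and 103.2 CPM in dd (log2 difference -0.22, 95% interval -0.50 to 0.05, adjusted p = 0.238 by edgeR). It is the 1 tested serpin that overlaps annotated genes on the opposite strand, among them Nqo2 and Ripk1, and reads from the strands may not have been separated.

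The remaining clade B genes were low. Serpinb6b, a near relative of Serpinb6a, stood at 19.6 and 13.1 CPM in ff against 16.2 and 5.94 CPM in dd, with overlapping groups (log2 difference -0.57, adjusted p = 0.50 by edgeR). Serpinb6c had 76 counts in ff replicate 1 and 4 to 7 in each of the other libraries, so it had too few to be tested with all 4 libraries. It was tested in the fit without ff replicate 2, where ff replicate 1 was the only ff library. Serpinb5, Serpinb11 and Serpinb12 had log2 differences of 0.93, -0.01 and 0.77, with overlapping groups and adjusted p-values of 0.391, 0.991 and 0.380 by edgeR. Of 28 clade B genes, 11 had no count in any library. Summed clade B FPKM was 77.0 and 57.6 in ff and 52.2 and 48.8 in dd.

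The proteases that these serpins meet were read from lists. Each count of called list genes is to be read beside the 8.39% of all tested genes called (4.52% higher, 3.86% lower). Of 15 tested granule proteases of leukocytes, 1 was called, as lower: Prf1, the pore-forming perforin that delivers granzymes, fell by 2.23 on the log2 scale (adjusted p = 0.0227 by edgeR). Gzmb, the protease bound by Serpinb9, stood at 38.6 ± 1.85 CPM in ff against 11.4 ± 6.19 CPM in dd (SD, n = 2 each). Its log2 difference was -1.77 with an adjusted p of 0.0603 by edgeR. Gzma had a log2 difference of -2.15 (adjusted p = 0.0821 by edgeR), and Tpsb2, a mast cell tryptase, one of 1.38 (adjusted p = 0.124 by edgeR). The median of this list was -0.12. Of 14 tested lysosomal cathepsins (median -0.34), Ctse, an aspartic protease, rose by 3.33 and Lgmn, the legumain protease, fell by 1.60 on the log2 scale (adjusted p = 0.0166 and 0.0476 by edgeR). Ctsc, which activates granule proteases, and Ctsw had log2 differences of -0.78 and -1.06 (adjusted p = 0.0539 and 0.0849 by edgeR). Markers of uterine natural killer cells summed to 88.1 and 75.9 CPM in ff against 29.7 and 17.8 CPM in dd, with 3 of 7 called lower and none at 0. Macrophage markers summed to 360.4 and 413.2 CPM in ff against 221.6 and 215.9 CPM in dd, with 4 of 8 called lower and none at 0. The natural killer list includes Prf1, Gzma and Gzmb, so its sum is not separate from the values given above for them. The part of natural killer cells and macrophages in the Serpinb9, Serpinb1a and Serpina3n differences was not tested.

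The serpins of plasminogen activation described here were not called. Serpine2, the cell-surface inhibitor of thrombin and plasminogen activators also called protease nexin 1, stood at 164.0 and 98.1 CPM in ff against 59.5 and 109.4 CPM in dd. The groups overlapped, with dd replicate 2 above ff replicate 2 (log2 difference -0.63, 95% interval -1.60 to 0.34, adjusted p = 0.323 by edgeR). Serpini1, the tissue plasminogen activator inhibitor neuroserpin, had a log2 difference of -0.29 (adjusted p = 0.499 by edgeR). Serpinb2, plasminogen activator inhibitor 2, was counted only 2 and 1 times in ff and 3 and 4 times in dd.

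The enzyme that Serpini1 blocks did differ between the groups. Plat, tissue plasminogen activator, stood at 86.9 and 120.9 CPM in ff against 276.1 and 568.8 CPM in dd. It rose by 2.02 on the log2 scale (SE 0.388, adjusted p = 0.0471 by edgeR). Lrp1, the receptor that clears serpin-protease complexes, fell from 389.4 ± 0.850 CPM to 243.7 ± 9.85 CPM (SD, n = 2 each), by 0.68 on the log2 scale (adjusted p = 0.0292 by edgeR). These were the called members among 10 tested genes of plasminogen activation (median 0.03). Anxa2, a cell-surface receptor for plasminogen, and Vtn, the matrix protein vitronectin, had log2 differences of 0.30 and -0.64 (adjusted p = 0.137 and 0.156 by edgeR).

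The circulating clotting serpins were at the limit of detection. Serpinc1 (antithrombin) had 5 to 13 counts per library, Serpind1 (heparin cofactor II) 0 to 4 and Serpinf2 (α2-antiplasmin) 2 to 8, and none was tested. Of 13 tested coagulation genes (median -0.95), 1 was called higher and 5 lower. F5, coagulation factor V, rose by 2.98 on the log2 scale (adjusted p = 0.0238 by edgeR). Those that fell were the protein S gene Pros1 (log2 difference -0.73), the tissue factor pathway inhibitor gene Tfpi (-0.77), the protein C receptor gene Procr (-1.43), the thrombomodulin gene Thbd (-1.19) and the thrombin receptor gene F2r (-1.30). Their adjusted p-values by edgeR were 0.0253 to 0.0398. Endothelial markers summed to 1859 and 1587 CPM in ff against 879.2 and 886.0 CPM in dd, with 10 of 12 called lower and none at 0. Their part in the coagulation list was not tested.

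Serping1 encodes C1 inhibitor, which stops the first complement proteases C1r and C1s. By the mean of both groups it was the second most abundant serpin per length, at 222.6 and 176.3 FPKM in ff and 138.2 and 104.1 FPKM in dd. In dd alone, the means of Serpina1e (201.4 FPKM) and Serpinf1 (126.8 FPKM) stood above that of Serping1 (121.2 FPKM). Both dd libraries lay below both ff libraries for Serping1. In CPM the log2 difference was -0.72 (SE 0.197, 95% interval -1.23 to -0.21, adjusted p = 0.0919 by edgeR), and Serping1 was not called. DESeq2 gave an adjusted p of 0.00757, and leaving out 1 library at a time gave edgeR values of 0.0894 to 0.267. Of 17 tested classical and lectin complement genes (median -0.20), 5 were called lower and 2 higher. The subunit genes of C1q fell: C1qa by 0.90, C1qb by 0.81 and C1qc by 0.88 on the log2 scale (adjusted p = 0.0227, 0.024 and 0.0227 by edgeR). C1s1 and C1ra, which encode the proteases that Serping1 blocks, fell by 0.58 and 0.59 (adjusted p = 0.0383 and 0.0468 by edgeR). Cfi, the complement factor I gene, and Cfd, the factor D gene, rose by 1.34 and 4.35 (adjusted p = 0.0333 and 0.0314 by edgeR), Cfd from 0.109 to 2.27 CPM. Macrophage markers were lower as given above, but that list includes C1qa itself, so its sum is not separate from the C1q values. The part of macrophages in the C1q values was not tested.

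Serpinh1 was the most abundant serpin per length. It encodes HSP47, a collagen chaperone of the endoplasmic reticulum that inhibits no protease. Its levels were 616.8 and 410.8 FPKM in ff and 419.6 and 349.5 FPKM in dd, with overlapping groups because dd replicate 1 lay above ff replicate 2. The log2 difference in CPM was -0.42 (SE 0.235, 95% interval -1.02 to 0.19, adjusted p = 0.302 by edgeR). Without ff replicate 1 it was -0.10. Of 24 tested collagen and collagen-processing genes (median -0.52), 3 were called, all lower. These were the basement membrane collagens Col4a1 (log2 difference -1.21), Col4a2 (-1.03) and Col15a1 (-1.26), with adjusted p-values of 0.0279, 0.0354 and 0.0378 by edgeR. Col14a1, a fibril-associated collagen, had a log2 difference of -0.99 (adjusted p = 0.0518 by edgeR). Stromal markers summed to 13489 and 11979 CPM in ff against 8939 and 6636 CPM in dd, with 7 of 12 called lower and none at 0. The stromal list includes Col1a1 and Col3a1, which are also in the collagen list. The part of stromal cells in the Serpinh1, Serping1 and collagen values was not tested.

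Serpinf1 encodes PEDF, a secreted non-inhibitory serpin known for restraining blood vessel growth. Its levels were close within each group, at 104.5 and 101.8 FPKM in ff and 121.3 and 132.4 FPKM in dd, and the groups did not overlap. The log2 difference in CPM was 0.30 (SE 0.0974, 95% interval 0.05 to 0.55, adjusted p = 0.127 by edgeR). None of 13 other settings called it.

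**Figure D2:**
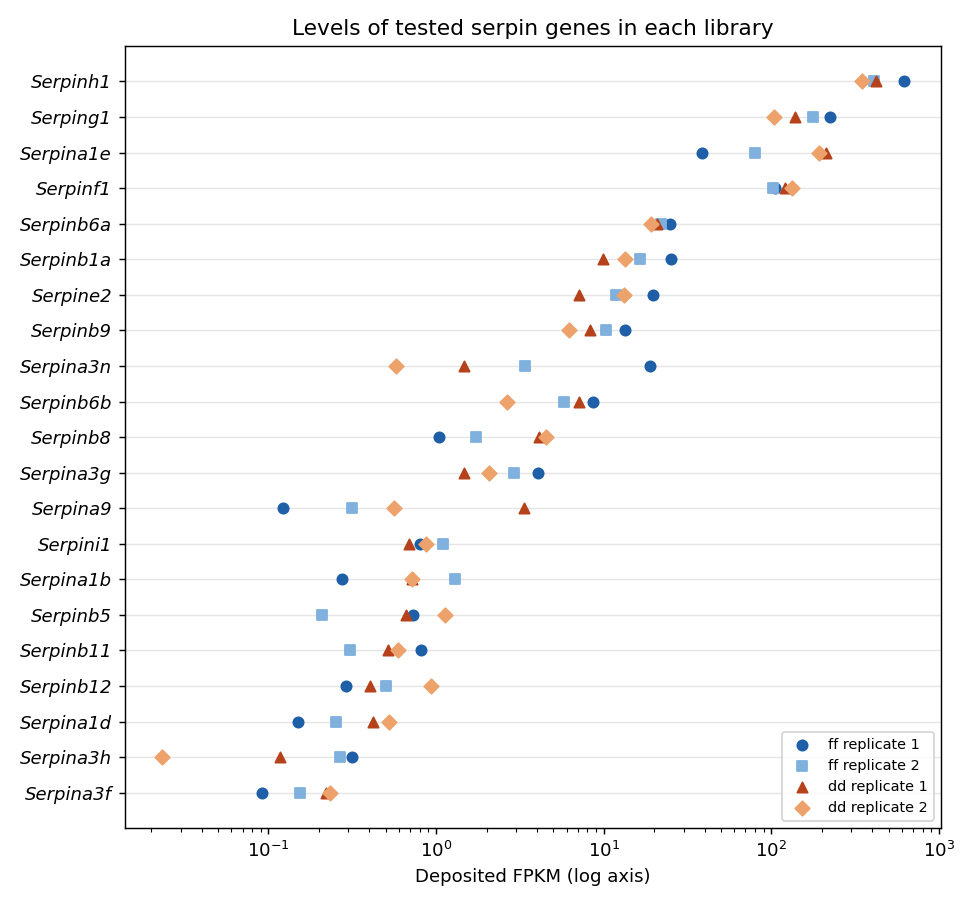
Deposited FPKM of 21 tested serpin genes in each of the 4 libraries (logarithmic horizontal axis), ordered by mean level. Serpinh1, Serping1, Serpina1e and Serpinf1 lie at or above 38.7 FPKM in every library, and the ff points of Serpina1e and Serpinb8 lie left of their dd points.

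These 4 abundant genes made up most of the serpin transcript pool, as shares of summed serpin FPKM in a library. Serpinh1 took 55.8% and 48.3% of the pool in ff and 43.7% and 41.2% in dd. Serpina1e took 3.50% and 9.37% in ff and 22.03% and 22.6% in dd. Serping1 took 20.1% and 20.7% in ff and 14.4% and 12.3% in dd, so that Serpina1e ranked above it in both dd libraries and below it in both ff libraries. Serpinf1 took 9.45% and 11.98% in ff and 12.6% and 15.6% in dd. The summed FPKM of all serpins was 1106 and 850.2 in ff and 959.7 and 847.6 in dd, with overlapping groups. Because shares within a library sum to a fixed total, the rise of any share lowers the others.

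**Figure D3:**
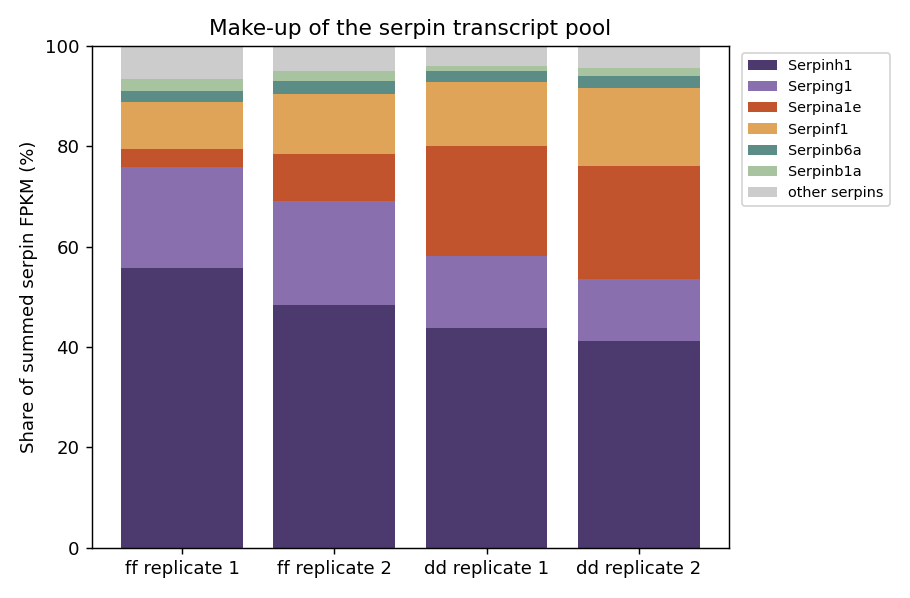
Share of the summed serpin FPKM (vertical axis, percent) taken by the 6 most abundant serpin genes and by all others, in each of the 4 libraries. The Serpina1e band widens from 3.50% and 9.37% in ff to 22.03% and 22.6% in dd.

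By position, the chromosome 13 cluster, with 16 serpin genes, had 4 tested members, Serpinb1a, Serpinb6a, Serpinb6b and Serpinb9, and all 4 estimates were below 0. Over all tested genes, 49.7% of estimates were below 0. On chromosome 12, with 28 serpin genes, 4 of 8 tested estimates were above 0 and 4 below. On chromosome 1, with 14 serpin genes, 3 of 5 were above 0 and 2 below. None but Serpinb8 was called on any of these chromosomes. The chromosome 1 counts go by chromosome: its clade B cluster spans 106861173 to 107610484. Serpine2 (from 79794197), tested with an estimate below 0, and the untested Serpinc1 (from 160978585) lie outside that cluster. Neighbouring genes may share reads, so these counts are a description.

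Protease inhibitors outside the serpin family and serine proteases of epithelium were read as well. Of 19 other tested inhibitors (median -0.14), 4 were called higher and 2 lower. Slpi, the secreted leukocyte protease inhibitor of mucosal surfaces, blocks neutrophil elastase, as human α1-antitrypsin does. Whether the product of Serpina1e does so was not tested. Slpi rose from 2.44 ± 0.224 CPM to 30.1 ± 6.68 CPM (log2 difference 3.62, adjusted p = 0.0146 by edgeR). Wfdc2, a related secreted epithelial protein, rose by 1.55, and Spint2, a membrane Kunitz inhibitor of epithelial serine proteases, by 0.83 (adjusted p = 0.02 and 0.0235 by edgeR). A2m, the bait-type inhibitor α2-macroglobulin, rose by 2.42 (adjusted p = 0.0338 by edgeR). Spink1, a Kazal-type trypsin inhibitor, fell by 5.59, and Ctla2a, a cathepsin inhibitor of decidua, by 2.32 (adjusted p = 0.0292 and 0.0325 by edgeR). Of 15 tested epithelial and gland serine proteases (median 0.37), Tmprss4, Prss8 and Hpn rose by 1.27, 1.11 and 1.58 on the log2 scale and none was called lower (adjusted p = 0.0227, 0.024 and 0.0354 by edgeR). Tmprss2 had a log2 difference of 0.53 (adjusted p = 0.0557 by edgeR). Against 8.39% of all tested genes (4.52% higher, 3.86% lower), 30 of 127 tested genes over all 8 lists were called, 12 higher and 18 lower. With ff replicate 1 left out, 2 were called, and with ff replicate 2 left out, 31. Leaving out dd replicate 1 gave 22 calls and dd replicate 2 gave 9.

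**Figure D4:**
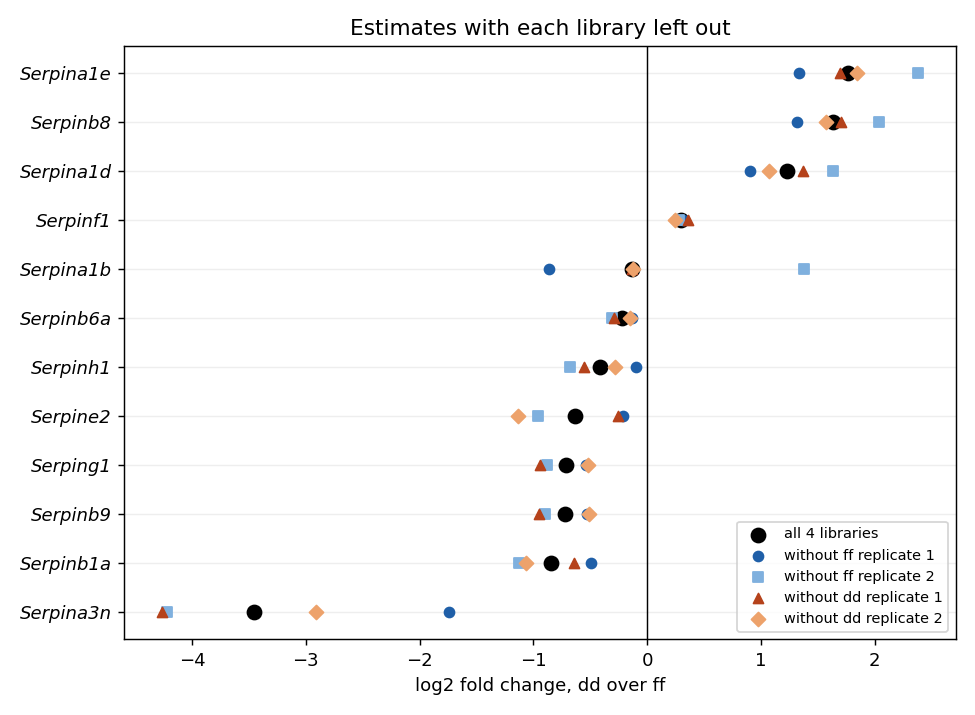
Log2 difference of dd over ff for 12 named serpin genes (horizontal axis), from all 4 libraries (black) and with each library left out in turn (coloured). Serpina3n moves from -3.46 to -1.74 without ff replicate 1, and Serpina1b has points on both sides of 0.

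Markers of the remaining cell types and of tissues that could be carried over were read in the same way. Smooth muscle, mesothelial, mast cell and adipocyte lists had no called member. Red cell markers summed to 69.3 and 68.0 CPM in ff against 237.6 and 305.8 CPM in dd (4 of 5 tested called higher), and oviduct markers to 37.7 and 37.9 CPM in ff against 137.9 and 141.1 CPM in dd (2 of 6 called higher). The neutrophil list had 1 called member, Ltf, which uterine epithelium is also known to make. Ltf rose from 8.84 ± 6.39 CPM to 340.3 ± 92.2 CPM (adjusted p = 0.0238 by edgeR), while S100a8 had 6 and 28 counts in ff against 6 and 4 in dd. Elane, which encodes neutrophil elastase, the enzyme that human α1-antitrypsin inhibits, had no count in any library. The plasma cell and ovary lists had 1 called member each, both higher. The part of these cells in the serpin values was not tested.

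Apart from Serpinb6c, the 19 serpin genes with counts that were not tested had at most 14 counts in any library, and 16 of the 19 had at most 10. Of the 7 pseudogenes among the 68, 5 had no count in any library, Serpinb10 had at most 6, and Serpina3h was tested, with the values given above.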

How the data were processed

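Poly-A RNA from 4 whole-uterus samples was sequenced, per the series design text. The authors' tools were STAR and edgeR on the mm10 build, per the submitters' processing notes, without versions. No source used here gives the read counter, the annotation or the use of strand. The deposited table holds, per the file headers, whole-number counts per library, rescaled counts (a signal column, not used), FPKM (the design text says RPKM), a dd/ff ratio (fold) and a p-value without adjustment, from a test that no source used here gives.

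Deposited counts were tested with edgeR 4.0.16 in R 4.3.3 (TMM, filterByExpr with a minimum count of 10, glmQLFit and glmQLFTest, Benjamini-Hochberg), with all 4 libraries and no block. CPM values are counts over TMM-scaled library sizes. Replicates differed by more than sampling noise (chi-square per degree of freedom 32.0 in ff over 20334 genes and 32.6 in dd over 19882), so none was counted as a copy of another. Intervals of log2 differences come from the edgeR fit for each gene alone.

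Alternatives were DESeq2 size factors, upper quartile factors, library size alone, no filter, a minimum of 1 CPM in 2 libraries, the Wald test of DESeq2 1.42.0, limma-voom and limma-trend (limma 3.58.1) on log2(FPKM + 0.5), a replicate block, and each library left out in turn. Leaving out 1 library leaves a group of 1, which is assumed to vary like the group of 2.

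The serpin genes and all lists were chosen with earlier results of these data known. The genes named by rule were every called serpin, every other serpin with a mean of at least 10 FPKM in a group, Serpine2, Serping1, Serpinh1, Serpinf1, Serpinb2, Serpina3n, the Serpina1 copies, Mapk14, and, from each list, the 4 or fewer members of smallest p. Other serpins and list members named were chosen after their values were seen. For 1 tested serpin, included in all counts, values are not reported here.

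Positions, gene types and unique windows come from GENCODE M21 (GRCm38), which holds all 68 symbols, and upstream sequences from the RefSeq table (GRCm38.p6), which holds 53 of them.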

Additional observations from a re-analysis of the deposited data

How the results depend on the processing

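The number of serpin genes called by edgeR was 1 of 22. It stayed at 1 with DESeq2 size factors, upper quartile factors, a filter of 1 CPM in 2 libraries (19 serpins tested) and limma-trend on FPKM. It was 2 of 22 with library size alone and with limma-voom, 7 of 41 without a filter and 7 of 24 with DESeq2's Wald test. With each library left out in turn it was 0 to 4. Over all tested genes the number called was 1554, against 2947 without a filter and 2864 with DESeq2, and 90 to 1198 with a library left out. Over the lists of proteases and other partners it was 30, against 51 without a filter and 52 with DESeq2, and 2 to 31 with a library left out. Tested genes numbered 18530 in the main fit, 31737 without a filter and 19296 with DESeq2. On the lists they numbered 127, 146 and 131 in the same order. Library size alone called 1771 of 18530 genes and limma-voom 1513. The cause of these changes in the number called was not tested. Of all called genes 53.9% were higher in dd, against 47.4% with upper quartile factors and 42.4% with library size alone.

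The replicate numbers do not pair the libraries by any label, and the differences between replicates 1 and 2 in ff and in dd had a correlation of 0.00873 across 18530 genes, which are not independent replicates. With the number as a replicate block, 5 of 22 serpins (2 higher, 3 lower), 42 of 127 partner genes and 1531 of 18530 genes in all were called.

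Estimates near 0 changed sign under some settings, and the cause was not tested. Serpina1b (-0.14) was 0.28 with limma-voom, 0.0407 with limma-trend on FPKM, 0.15 with the replicate block and -0.86 (without ff replicate 1) to 1.38 (without ff replicate 2) with a library left out. Serpinb11 (-0.01) was 0.14, 0.0356 and 0.12 under the first 3 of these, and -0.54 (without ff replicate 2) to 0.85 (without ff replicate 1) with a library left out, being 0.07 without dd replicate 1. With 2 libraries a group, no outlying library can be tested for, and for genes of a few counts a difference was not detectable at this depth.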
